A study of Mus musculus with 9 samples.

Results

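Somatostatin signals through a family of 5 receptor genes, Sstr1 to Sstr5, and these genes were followed through tumors and islets of the INS-p25OE mouse. They were chosen by name, whatever their level, and all 5 were among the 54347 genes of the deposited table. Only Sstr3 reached the level required for testing, a value of 1 CPM (reads scaled to the size of the library) or more in 3 or more of the 9 libraries. In all, 15532 genes reached it.

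Each of 9 samples gave 1 RNA library. M1, M2 and M3 were functional tumors, M4, M5 and M6 were non-functional tumors, and NI1, NI2 and NI3 were normal islets. INS-p25OE mice carry an Ins2-rtTA transgene, in which the insulin promoter directs the activator to beta cells, and a tetOp-p25GFP transgene that then makes p25, a fragment of p35 that keeps the kinase Cdk5 active. Tumor-prone mice received doxycycline in their drinking water from weaning onward, when they were 3 to 4 weeks old, and the study notes some transgene expression without it. The islets are labelled C57BL/6, the background of all mice, and the study used littermates without transgenes as normal controls. Titles mark M1, M2 and M3 with the word Inulin, read here as insulin. M2 came from a female and the other 8 samples from males. Ages at collection, and whether the samples of a group came from separate animals, are not given in the labels, so p-values measure the spread between these samples.

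Somatostatin is released by delta cells of the islet and restrains its neighbors. Its receptors couple to inhibitory G proteins, which lower cyclic AMP, open GIRK potassium channels and close voltage-gated calcium channels, and in this way reduce hormone release. SSTR2 is best known in the clinic, since octreotide and the radiolabelled analogs used to image and treat human pancreatic neuroendocrine tumors (PanNETs) bind it, and it is prominent on alpha cells. SSTR3 is unusual in the family in that it is carried to the primary cilium. The study examined SSTR2 as a protein in INS-p25OE tumors, and does not say whether they were the sequenced ones. The deposited table gives the RNA of all 5 receptors, a measure unlike protein.

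Sequences before the transcription start are shown for Sstr3, which held nearly all of the family's reads, and for Sstr2, the receptor that the clinical analogs bind. They are RefSeq sequences of GRCm38.p6, 5′ to 3′ on the strand of each gene, and end at the base before the start. Capitals mark a cyclic AMP response element (CRE, TGACGTCA) in Sstr2 and a CCAAT box, here read on the opposite strand as ATTGG, in Sstr3. The Sstr2 window lies at chr11:113619077-113619326 on the plus strand and the Sstr3 window at chr15:78541407-78541656 on the minus strand, and neither holds a base of an annotated exon.
Sstr2: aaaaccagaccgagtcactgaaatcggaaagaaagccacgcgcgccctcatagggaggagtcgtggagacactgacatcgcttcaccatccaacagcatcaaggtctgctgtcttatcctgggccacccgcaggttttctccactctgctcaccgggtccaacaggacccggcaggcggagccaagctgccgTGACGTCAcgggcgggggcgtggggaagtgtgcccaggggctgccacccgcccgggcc
Sstr3, second start: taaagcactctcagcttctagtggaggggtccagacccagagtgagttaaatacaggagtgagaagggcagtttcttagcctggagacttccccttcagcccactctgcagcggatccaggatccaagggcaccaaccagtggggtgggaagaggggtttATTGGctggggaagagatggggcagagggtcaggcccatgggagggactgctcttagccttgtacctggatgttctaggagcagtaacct

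The CRE of Sstr2 began 58 bases before the start. It occurred, on either strand, in 1.55% of 32851 RefSeq windows of the same 250 bases. The CCAAT box of Sstr3 began 90 bases before its second start, and 33.8% of windows held these letters on either strand. Neither of the windows shown held a TATA box (TATAAA, in 12.4% of windows) or an E box (CACGTG, 6.02%). A GC box (GGGCGG, 32.7%), not overlapping the CRE, was in the Sstr2 window only. The window of the first RefSeq start of Sstr3 lies wholly in annotated exons and is not shown. It held an E box beginning 31 bases before that start and the shorter CRE site TGACG (in 17.8% of windows) beginning 9 bases before it. GC content was 63.6% in the Sstr2 window and 55.6% in the Sstr3 window, higher than in 80.0% and 60.1% of all windows. The deposited data hold no binding or methylation measurement at these windows.

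The 5 genes lie on 5 chromosomes of GRCm38. Sstr1 (ENSMUSG00000035431) is on chromosome 12 from 58211772 to 58214444, between Ttc6 and Clec14a. Sstr2 (ENSMUSG00000047904) is on chromosome 11 from 113619342 to 113626028, between Sox9 and Cog1, and overlaps Slc39a11 on the opposite strand with 0 exon bases in common. Sstr3 (ENSMUSG00000044933) is on chromosome 15 from 78537008 to 78544685, between C1qtnf6 and Rac2. Sstr4 (ENSMUSG00000037014) is on chromosome 2 from 148395344 to 148396767, between Foxa2 and Thbd. Sstr5 (ENSMUSG00000050824) is on chromosome 17 from 25489875 to 25497288, between Tekt4 and Sox8. Coding lengths are alike, from 1086 bases in Sstr5 to 1284 in Sstr3, while the exons of Sstr3 together cover 4.32 kb against 1.424 to 2.733 kb in the other 4.

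Library totals ran from 36468280 to 63637175 gene reads, and the limit of detection was set at 3 reads, or 0.0425 to 0.119 CPM after TMM scaling, which corrects each total for differences in composition. Cdk5r1, the gene of p35 and hence of the transgene product, stood at 149 to 401 CPM in the 6 tumors. In NI2 and NI3 it stood at 18.4 and 12.5 CPM, whereas NI1 had 280 CPM. Since this goes against its islet label, that library is called the library labelled NI1. Over the tested genes it was closest to M6 of all libraries, with a mean absolute log2 difference of 0.237, against 0.429 for the next closest pair, NI2 and NI3. M4 stood apart by its mitochondrial share, 32.1% of counts against 1.76 to 8.41% in the others. Sstr3 against islets is therefore also given without the library labelled NI1, as are the tests of other genes that depend on it. Insulin genes were high in every library, from 3827 CPM of Ins1 in M3 upward, as a beta-cell label requires.

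Sstr3 was the somatostatin receptor of these tissues by read number. It had 7938, 17249 and 6475 reads in M1, M2 and M3, 3465, 7042 and 8308 reads in M4, M5 and M6, and 9107, 11676 and 13862 reads in NI1, NI2 and NI3. The other 4 receptors together had from 3 reads in M4 to 77 reads in NI3. Sstr3 thus took between 99.45% of the family's reads in NI3 (95% Wilson interval 99.31 to 99.56%) and 99.94% in M5 (99.85 to 99.98%). Per kilobase of exon its share was 98.90 to 99.89%, so its longer transcript did not set this order. These intervals cover counting error only, since reads carried no molecular identifiers.

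**Figure D1:**
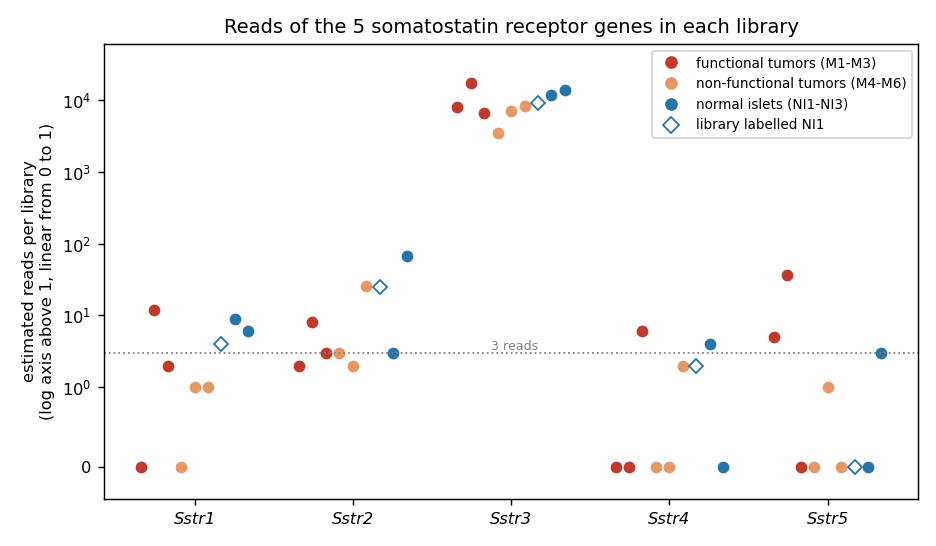
Estimated reads of each somatostatin receptor gene in each of the 9 libraries, on an axis that is logarithmic above 1 and linear between 0 and 1, with functional tumors in red, non-functional tumors in orange and islets in blue. Sstr3 lies between 3465 and 17249 reads in every library, while no other receptor exceeds 68 reads, and many points lie at or under the dotted line at 3 reads.

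Set against 30 other receptors on the lists, 4 of them its own family, Sstr3 was among the highest. On the scale of CPM per kilobase of exon, its mean level over the 9 libraries was 45.3, the third of 31 after the GLP-1 receptor Glp1r at 69.0 and the fatty acid receptor Ffar1 at 49.4. The alpha-2A adrenergic receptor Adra2a, which also couples to inhibitory G proteins, followed at 30.0. The place of Sstr3 differed by group. In islets, at 60.5, it lay below Glp1r at 73.6 and above Ffar1 at 35.5, whereas in tumors, at 37.7, it lay below both Glp1r at 66.7 and Ffar1 at 56.4, and these orders were not tested. Sstr2 was 18th over all libraries at 0.157 CPM per kilobase. Among 15520 tested genes with an annotated length, Sstr3 ranked 778th on this scale.

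Within the family, only the first place in the order of levels was clear of the spread. In CPM per kilobase of exon, Sstr3 averaged 40.3 ± 14.9 (SD, n = 3) in functional tumors, 35.2 ± 4.30 (n = 3) in non-functional tumors and 60.5 ± 22.2 (n = 3) in islets. In functional tumors Sstr5 came next at 0.0744 ± 0.0987, followed by Sstr1 at 0.0336 ± 0.0437, Sstr2 at 0.0324 ± 0.0180 and Sstr4 at 0.0255 ± 0.0442. In non-functional tumors the second place was held by Sstr2 at 0.0973 ± 0.102, and Sstr4, Sstr1 and Sstr5 lay at 0.00824 ± 0.0143, 0.00687 ± 0.00619 and 0.00300 ± 0.00519. In islets Sstr2 was second at 0.340 ± 0.395, ahead of Sstr1 at 0.0712 ± 0.0369, Sstr4 at 0.0309 ± 0.0348 and Sstr5 at 0.00907 ± 0.0157. Neighbors among the lower 4 differed by less than the larger of their SDs, except Sstr1 and Sstr4 in islets, so their order was mostly not resolved.

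Sstr3 stood at lower levels in the tumors than in NI2 and NI3. Its TMM-scaled level was 160, 244 and 118 CPM in M1, M2 and M3, 137, 173 and 146 CPM in M4, M5 and M6, and 156, 285 and 344 CPM in NI1, NI2 and NI3. All 6 tumors lay below NI2 and NI3, but the library labelled NI1 lay inside the range of the tumors, below M1, M2 and M5. The mean was 163 ± 44.0 CPM (SD, n = 6) in tumors and 261 ± 95.9 CPM (n = 3) in islets, or 314 ± 41.5 CPM (n = 2) without the library labelled NI1. Of the tested genes, 16.3% likewise had every tumor below both NI2 and NI3, and 3.17% had every tumor below all 3 islet libraries.

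**Figure D2:**
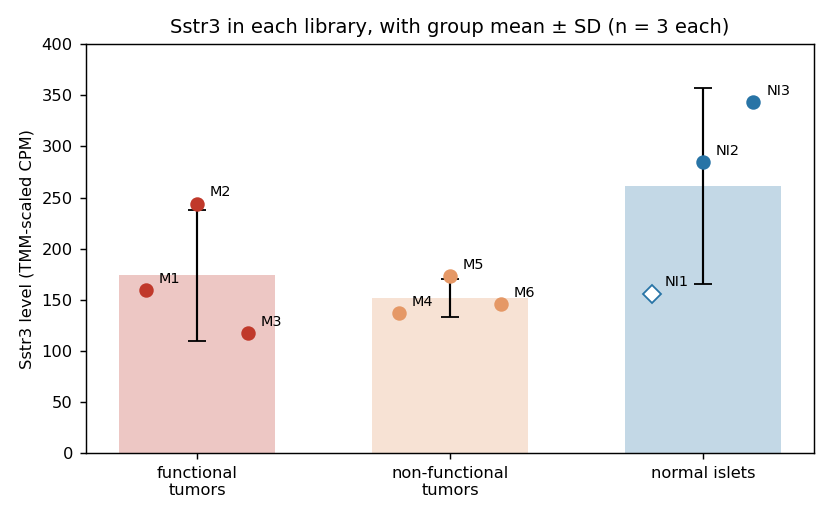
TMM-scaled CPM of Sstr3 in each library (points), with bars for the group mean and error bars for the SD over 3 libraries. The 6 tumors lie between 118 and 244 CPM, below NI2 at 285 and NI3 at 344 CPM, while the library labelled NI1 (open diamond) at 156 CPM lies among the tumors.

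The difference between tumors and islets did not pass the test. With all libraries, the log2 fold change of Sstr3 in tumors relative to islets was -0.68 (standard error 0.28, 95% interval -1.31 to -0.06), and its adjusted p was 0.226 by the quasi-likelihood test of edgeR with Benjamini-Hochberg adjustment over all tested genes. Of the family, 0 of 1 tested members were called (adjusted p under 0.05), in a comparison that called 0.258% of tested genes. Its unadjusted p was 0.035, and 19.8% of tested genes had an unadjusted p under 0.05, 9.14% with lower levels in tumors. DESeq2, which called 8.13% of genes, gave -0.69 with an adjusted p of 0.131, and limma also gave no call. Without the library labelled NI1 the value was -0.95 (standard error 0.26, interval -1.54 to -0.35, adjusted p = 0.0576 by edgeR), where 8.34% of 15350 tested genes were called. Without that library and M6, its closest neighbor, the value was -0.92 (adjusted p = 0.0829).

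Neither tumor class alone passed the test for Sstr3 against islets. Relative to the same 3 islet libraries, the log2 fold change was -0.59 (interval -1.36 to 0.18, adjusted p = 0.349 by edgeR) in functional tumors, where 0.476% of genes were called and 21.1% had an unadjusted p under 0.05. It was -0.78 (-1.55 to -0.01, adjusted p = 0.344, unadjusted p = 0.0476) in non-functional tumors, where 0% were called and 14.5% had an unadjusted p under 0.05, 6.19% with lower levels. Without the library labelled NI1 the values were -0.86 (adjusted p = 0.124, with 7.82% of genes called) and -1.05 (adjusted p = 0.0918, with 3.92%). By DESeq2 the adjusted p was 0.281 for functional and 0.222 for non-functional tumors, with 10% and 2.52% of genes called. Functional and non-functional tumors overlapped, with means of 174 ± 64.4 and 152 ± 18.6 CPM (SD, n = 3 each). The log2 fold change of functional relative to non-functional tumors was 0.19 (standard error 0.34, interval -0.57 to 0.96, adjusted p = 0.872 by edgeR). In that comparison edgeR called 0% of tested genes, 10.3% had an unadjusted p under 0.05, and DESeq2 gave 0.16 with an adjusted p of 0.914 while calling 0.721%. Without M2, the sample with the highest tumor level, the value was -0.13.

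**Figure D3:**
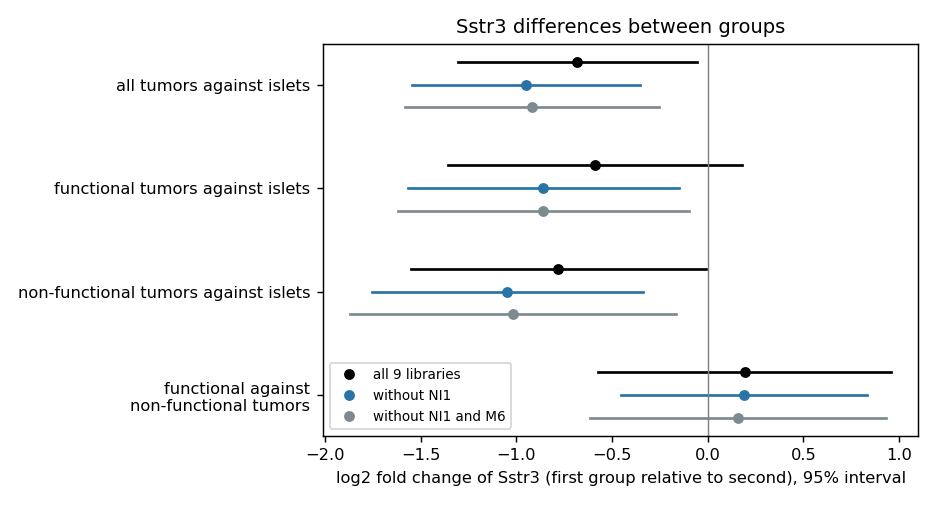
Log2 fold change of Sstr3 in the 4 comparisons (points) with its 95% interval from edgeR (lines), for all 9 libraries in black, without NI1 in blue and without NI1 and M6 in grey. Against islets all values lie between -1.05 and -0.59, and between the tumor classes the intervals span 0.

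The summed level of beta-cell markers, most of it insulin RNA, was also highest in NI2 and NI3. The 9 on the list summed to between 18410 CPM in M3 and 116800 CPM in M6 among the tumors, 121900 CPM in the library labelled NI1, 327600 CPM in NI2 and 365100 CPM in NI3. M2, the tumor with the most Sstr3, had 34920 CPM. None of the 9 was at 0 in any library. Not every marker followed the sum: Mafa reached 290 CPM in M5 against 167 and 216 CPM in NI2 and NI3, Nkx6-1 reached 1290 CPM in M4 against 630 and 689 CPM, and Pdx1 had a log2 fold change of 0.44 in tumors (adjusted p = 0.249 by edgeR). In tumors relative to islets 0 of the 9 were called, in a comparison that called 0.258% of tested genes. Positive values were seen for 3, and for 52.5% of all tested genes. The 6 markers of the response to tissue dissociation, such as Fos, summed to 50.5 to 100 CPM in the tumors. In NI1, NI2 and NI3 they summed to 461, 2259 and 1133 CPM. All 6 were called lower in tumors, as were 0.258% of tested genes. The 6 acinar markers summed to 0.725 to 179 CPM in the tumors and to 262, 308 and 4737 CPM in the islets. The part of these in the result was not tested. In bulk tissue, fewer cells of a type and less RNA per cell cannot be told apart.

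Sstr2 RNA was close to the limit of detection in most libraries. There were 2, 8 and 3 reads in M1, M2 and M3, 3, 2 and 26 reads in M4, M5 and M6, and 25, 3 and 68 reads in NI1, NI2 and NI3. NI3 was the only library above 1 CPM, at 1.69 CPM, followed by M6 at 0.458 and the library labelled NI1 at 0.429 CPM. The other 6 libraries, NI2 included, lay between 0.0403 and 0.119 CPM. The mean was 0.139 ± 0.160 CPM (SD, n = 6) in tumors and 0.729 ± 0.847 CPM (n = 3) in islets, or 0.879 ± 1.14 CPM (n = 2) without NI1. Tumors and islets therefore overlapped, and the 3 islet libraries spanned a wider range than the tumors.

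The gene did not pass the filter on low values. In a fit without that filter, over 31582 genes, the log2 fold change of Sstr2 in tumors relative to islets was -2.32 (standard error 1.01), with an adjusted p of 0.315 by edgeR. Its value in functional relative to non-functional tumors was -1.53 (standard error 1.23, adjusted p = 0.767). Alpha-cell markers were also highest in NI3. The 5 on the list summed to 14320 CPM there, 2333 CPM in NI2 and 1238 CPM in the library labelled NI1, and to 92.3 to 530 CPM in the tumors, where M6 was the highest and Gcg, which encodes glucagon, was at 239 CPM or less. NI3 was likewise highest in the 4 delta-cell markers among islets (2488 CPM, against 92.4 and 331 CPM) and in acinar markers. Among tumors the delta-cell markers were highest in M2, at 2581 CPM, above NI3. They were lowest in M6, at 12.5 CPM, the tumor with the most Sstr2. The part of these markers in the Sstr2 values was not tested.

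Sstr1 was seen at a few reads. It had 0, 12 and 2 reads in M1, M2 and M3, 0, 1 and 1 in M4, M5 and M6, and 4, 9 and 6 in NI1, NI2 and NI3. All 3 islet libraries were above 3 reads, against 1 of 6 tumors, M2, whose 0.170 CPM lay within the islet range of 0.0686 to 0.220 CPM. The mean was 0.0414 ± 0.0645 CPM (SD, n = 6) in tumors and 0.146 ± 0.0756 CPM (n = 3) in islets, or 0.184 ± 0.0501 CPM (n = 2) without NI1. Without the filter its log2 fold change in tumors was -1.61 (standard error 1.19, adjusted p = 0.508 by edgeR).

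Sstr5 reads came mostly from a single tumor. M2 had 36 reads (0.510 CPM) and M1 had 5 (0.101 CPM), while M3, M4 and M6 had 0 and M5 had 1. In the islets NI3 had 3 reads and the other libraries 0. Functional tumors thus held 41 reads and non-functional tumors 1, and M2 alone supplied 36 of them. M2 was also the tumor with the most RNA of the ligand, and the only female sample. Without the filter, the log2 fold change of Sstr5 in functional relative to non-functional tumors was 4.31 (standard error 2.06, unadjusted p = 0.053, adjusted p = 0.73 by edgeR).

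Sstr4 was at or near 0 throughout. M3 had 6 reads, M6 and the library labelled NI1 had 2 each, NI2 had 4, and the other 5 libraries had 0. A count of 0 allows a level of up to 0.0425 CPM in M2, the deepest library, and up to 0.119 CPM in M4. No difference between groups was detectable at this depth (tumors relative to islets without the filter, log2 fold change -0.70, standard error 1.52, adjusted p = 0.822 by edgeR).

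The ligand varied more between libraries than between groups. Sst, the somatostatin gene, stood at 107, 2528 and 2.75 CPM in M1, M2 and M3, at 80.4, 53.6 and 2.76 CPM in M4, M5 and M6, and at 79.9, 312 and 2399 CPM in NI1, NI2 and NI3. M2 and NI3 were far above the rest, and M3 and M6 were the lowest. The log2 fold change in tumors relative to islets was -1.01 (standard error 1.78, adjusted p = 0.786 by edgeR) and it was 1.23 without NI3, -4.23 without M2 and -1.56 without NI1. Between functional and non-functional tumors it was 4.27 (interval -0.55 to 9.09, adjusted p = 0.517), and M2 held 178598 of the reads behind it, against 5323 in M1 and 151 in M3. Cort, which encodes the related peptide cortistatin, did not pass the filter and stayed at or below 0.516 CPM. It had 0 reads in NI2 and NI3 and between 8 and 25 reads in the other 7 libraries, the one labelled NI1 included.

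The other genes were read from 14 lists with 119 genes in the table, of which 96 were tested. Besides genes of the pathway, the lists held related peptide receptors and other islet receptors, Drd2 and Chrm3 among them. All are counted as pathway genes here. In tumors relative to islets, edgeR called 0 of the 96. By unadjusted p, 11 were higher and 13 lower (10.7% and 9.14% of all genes were), together 25% of those tested against 19.8% of all genes. DESeq2 called 6 higher and 7 lower, against 4.96% and 3.17% of all genes, and limma called 0. Without the library labelled NI1, edgeR called 5 higher (Adcy1, Rgs12, Rgs3, Drd2 and Arrb2) and 4 lower (Cacna1i, Scg5, Rgs1 and Chrm3), against 5.34% and 3% of all genes. The median log2 fold change was -0.02 over the 96 genes and 0.03 over all tested genes.

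Of the 6 genes that process prohormones, 0 were called in tumors relative to islets. All 6 had negative log2 fold changes, with a median of -0.93, while 52.5% of all tested genes were above 0. By unadjusted p 3 were lower, and 9.14% of all genes were. Scg5, which encodes the 7B2 chaperone of prohormone convertase 2, stood at 230 to 364 CPM in the tumors, 361 CPM in the library labelled NI1, 819 CPM in NI2 and 1354 CPM in NI3. By edgeR the log2 fold change was -1.52 (standard error 0.34) at an adjusted p of 0.133, and -1.88 (adjusted p = 0.00632) without NI1. Cpe, which encodes carboxypeptidase E, had -1.19 (adjusted p = 0.17, and -1.38 with 0.0864 without NI1) and ranged from 1259 to 4021 CPM in tumors and from 3701 to 5953 CPM in islets. DESeq2 called Scg5, Cpe and Pcsk2 lower. Scg5, Cpe and Pcsk2 serve insulin as well, and each was highest in NI2 and NI3, the libraries with the most insulin RNA. For every other gene of this list, a tumor lay above NI2.

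The G proteins that carry the receptor signal showed small differences. Of 5 inhibitory alpha subunits 0 were called and the median was 0.05. At an unadjusted p under 0.05, 1 was higher, and 10.7% of all genes were. Gnai1 ranged from 33.8 to 85.3 CPM in tumors and from 17.7 to 39.7 CPM in islets (log2 fold change 0.85, adjusted p = 0.221 by edgeR, and 1.12 with 0.113 without NI1), and Gnai3 had -0.16 (interval -0.67 to 0.34). Of 11 tested beta and gamma subunits 0 were called and 0 had an unadjusted p under 0.05, against 0.258% and 19.8% of all genes. The largest values were 0.78 for Gng11 (adjusted p = 0.373) and -0.72 for Gng7 (adjusted p = 0.614), which was -0.05 without NI1.

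Among the effectors, the GIRK channel genes differed most between libraries. Kcnj5, which encodes GIRK4, was at 6.21, 49.2 and 8.84 CPM in M1, M2 and M3 and at 6.26 and 20.7 CPM in M4 and M5, but at 0.0880 CPM in M6, and the islet libraries had 4, 5 and 9 reads (0.0686 to 0.223 CPM). Thus 5 of 6 tumors lay above every islet library and M6 lay among the islets. By edgeR it had a log2 fold change of 6.80 (standard error 1.67) at an adjusted p of 0.142, 7.06 (adjusted p = 0.0237) without M6, and 6.44 (adjusted p = 0.0826) without NI1. DESeq2 called it higher, with 6.78.

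Kcnj3, which encodes GIRK1, the usual partner subunit, had the opposite pattern. M6 held 333 reads (5.86 CPM) and the islet libraries 294, 58 and 111 reads (1.42 to 5.04 CPM), while the other 5 tumors had 0 to 3 reads. Its log2 fold change in tumors was -1.61 (adjusted p = 0.635 by edgeR) and -6.76 (adjusted p = 0.017) without M6. In functional relative to non-functional tumors it was -6.62 (adjusted p = 0.455), where M6 supplied 333 of the 336 non-functional reads, and DESeq2 called it lower. Kcnj6, which encodes GIRK2, was at 4.55 to 16.5 CPM in tumors and 6.62 to 9.79 CPM in islets, and had a log2 fold change of 0.61 (adjusted p = 0.402). Kcnj9 did not pass the filter.

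Of 8 tested adenylyl cyclases, the enzymes that make cyclic AMP, 0 were called and the median was 0.14. Adcy7 had the largest value, 1.47 (standard error 0.85, adjusted p = 0.358 by edgeR), with M3 at 117 CPM against 8.76 to 27.9 CPM in the other tumors. Adcy3 followed with 0.77 (adjusted p = 0.248), at 10.4 CPM or more in every tumor, and its islet values were 15.4, 6.73 and 8.10 CPM in NI1, NI2 and NI3. The call of Adcy1 depended on the library labelled NI1. Adcy1 had 28 and 36 reads in NI3 and NI2 (0.694 and 0.878 CPM), 152 CPM in NI1 and 17.8 to 165 CPM in the tumors, and its log2 fold change was 0.15 (adjusted p = 0.964) with NI1 and 6.17 (adjusted p = 0.0195) without it.

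Of the 8 calcium channel pore genes, 2 were higher and 1 was lower by unadjusted p, and 10.7% and 9.14% of all genes were. Cacna1i, which encodes a T-type channel, was at 0.242 to 1.13 CPM in tumors and at 1.53, 2.90 and 3.49 CPM in NI1, NI2 and NI3, so that the groups did not overlap, as in 3.17% of tested genes. By edgeR it had -2.27 (standard error 0.56) at an adjusted p of 0.142, and -2.55 (adjusted p = 0.0336) without NI1. Cacna1e, which encodes the R-type channel, was at 5.99 to 24.4 CPM in 5 tumors and 1.34 CPM in M6, against 1.21 to 3.64 CPM in islets (log2 fold change 2.20, adjusted p = 0.184, and 2.04 with 0.207 without NI1). DESeq2 called Cacna1i lower and Cacna1e higher.

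Of 7 arrestins and receptor kinases, which switch receptors off, 0 were called in tumors relative to islets. Positive log2 fold changes were seen for 6 of them, with a median of 0.60, against 52.5% of all tested genes. By unadjusted p 3 were higher, and 10.7% of all genes were. Grk5, a receptor kinase, was at 88.1, 94.2 and 103 CPM in M1, M2 and M3, at 65.2, 52.7 and 38.3 CPM in M4, M5 and M6, and at 34.2 to 41.3 CPM in islets. In all tumors its log2 fold change was 0.99 (adjusted p = 0.163 by edgeR), and 1.07 (adjusted p = 0.108) without NI1. In functional tumors alone relative to islets it was 1.36 (standard error 0.22, adjusted p = 0.0391), the only gene of the 96 called by edgeR in that comparison, which called 0.476% of all genes. DESeq2 called 8 of the 96 higher and 9 lower there, with 10% of all genes called, and without NI1 edgeR called 7 higher and 2 lower, with 7.82% called. Arrb2, which encodes beta-arrestin 2, was at 55.9 to 98.3 CPM in tumors, 65.2 CPM in NI1, 34.2 CPM in NI2 and 29.7 CPM in NI3, and its log2 fold change was 0.84 (adjusted p = 0.168), or 1.27 (adjusted p = 0.0183) without NI1.

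RGS proteins, which speed the shut-off of G protein signals, went both ways. Of 15 tested genes, 3 were higher and 4 were lower by unadjusted p, and 10.7% and 9.14% of all genes were. None of the 15 was called, and the median was -0.04. Rgs1 was at 1.18 to 3.21 CPM in tumors and at 7.75, 16.6 and 6.74 CPM in NI1, NI2 and NI3. Every tumor thus lay below every islet library, as in 3.17% of tested genes. By edgeR it had -2.35 (standard error 0.44) at an adjusted p of 0.0732, and without NI1 it had -2.53 (adjusted p = 0.0195). Rgs1 is expressed mainly by immune cells, and the 5 lymphoid markers summed to 3.14 to 94.2 CPM in tumors and 108 to 121 CPM in islets, while the 4 macrophage markers summed to 228 to 665 CPM in tumors and 105 to 221 CPM in islets. Their part in the Rgs1 values was not tested. Rgs14 had -1.63 (adjusted p = 0.169, and -1.93 with 0.0716 without NI1), at 0.504 to 2.54 CPM in tumors and 1.78 to 4.26 CPM in islets.

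**Figure D4:**
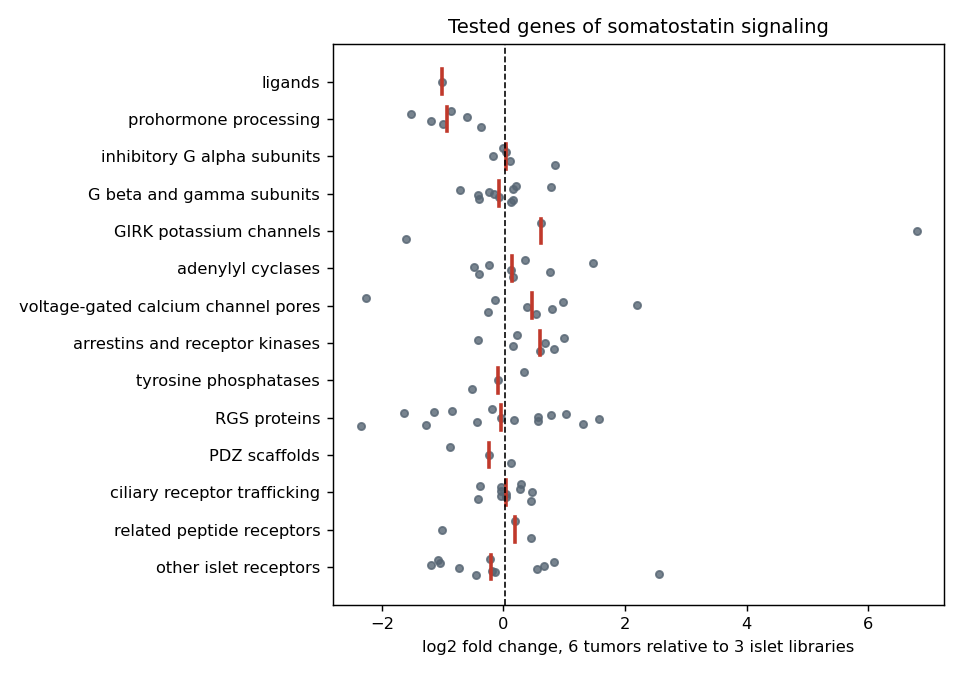
Log2 fold change in tumors relative to islets (points) for each tested gene of 14 lists, with the list median as a red line and the median of all tested genes, 0.03, as a dashed line. Kcnj5 at 6.80 lies farthest out, the 6 prohormone processing genes all lie below 0, and no gene passed the test by edgeR with all libraries.

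None of the remaining partners was called by edgeR with all libraries. Among 3 phosphatases that somatostatin receptors engage, Ptpn6 had -0.52 (adjusted p = 0.168 by edgeR), at 35.9 to 52.4 CPM in tumors and 50.9 to 70.1 CPM in islets, and Ptprj had 0.34 (adjusted p = 0.449). Of 3 scaffolds with PDZ domains, Mpdz had -0.88 (adjusted p = 0.232) and Gopc -0.24. By edgeR the unadjusted p was 0.0116 for Ptpn6 and 0.0382 for Mpdz. At an unadjusted p under 0.05, 9.14% of all genes were lower. The 11 genes of receptor transport to the cilium, the compartment of SSTR3, had a median of 0.04, against 0.03 over all tested genes. Of these 11, 0 were called and 0 had an unadjusted p under 0.05, against 0.258% and 19.8% of all genes. Ttc8 and Bbs1, both of the BBSome complex, had the largest values, 0.46 (interval -0.46 to 1.38) and 0.45 (interval -0.12 to 1.03).

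Of the peptide receptors nearest to the family, 3 of 11 passed the filter. The galanin receptor gene Galr3 had -1.02 (adjusted p = 0.192 by edgeR, and -1.33 with 0.0542 without NI1), at 2.68 to 5.75 CPM in tumors and at 3.87, 9.17 and 9.20 CPM in NI1, NI2 and NI3, and Galr1 had 0.46 (adjusted p = 0.43). Among 12 tested islet receptors outside the family, 0 were called, with a median of -0.20. By unadjusted p 0 were higher and 2 were lower, and 10.7% and 9.14% of all genes were. Drd2, the inhibitory dopamine D2 receptor gene, was at 2.64 to 8.96 CPM in all 6 tumors and 2.26 CPM in the library labelled NI1, but had 7 reads in NI2 and 0 in NI3. Its log2 fold change was 2.57 (adjusted p = 0.253), and 5.78 (adjusted p = 0.0193) without NI1. Gpr119, a lipid receptor gene of beta cells, was at 4.40 to 17.5 CPM in tumors and at 16.1, 32.1 and 29.5 CPM in NI1, NI2 and NI3 (log2 fold change -1.20, adjusted p = 0.162, and -1.45 with 0.0503 without NI1).

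**Figure D5:**
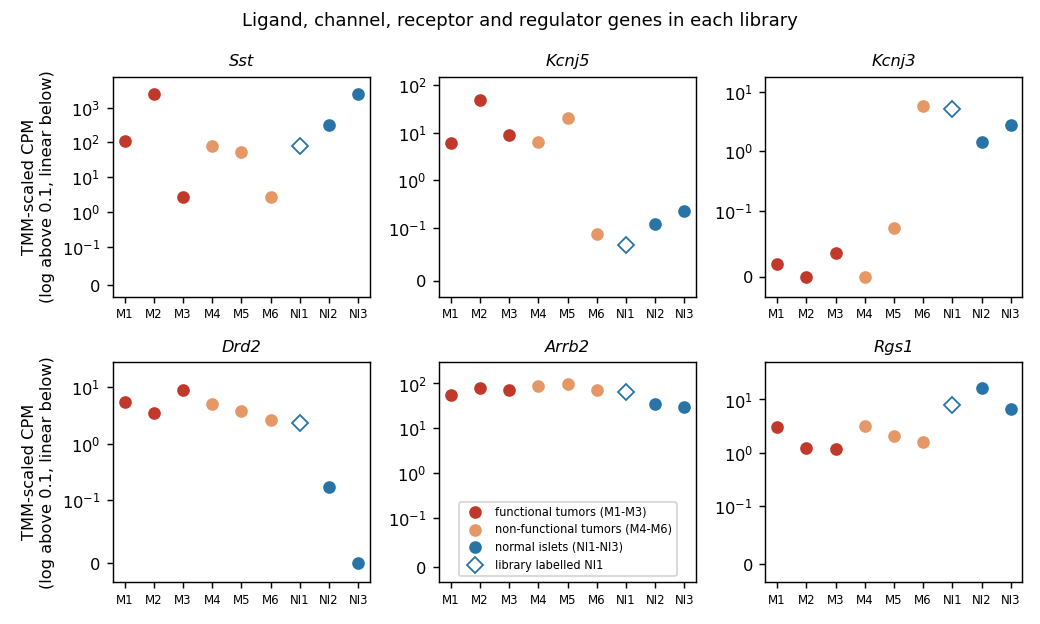
TMM-scaled CPM of Sst, Kcnj5, Kcnj3, Drd2, Arrb2 and Rgs1 in each library, on axes that are logarithmic above 0.1 and linear below, with tumors in red and orange, islets in blue and the library labelled NI1 as an open diamond. For Kcnj5 and Kcnj3, M6 lies with the islet libraries, and for Drd2 and Arrb2 the library labelled NI1 lies with or next to the tumors.

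Between functional and non-functional tumors, edgeR called 0 of the 96 pathway genes, with 7 higher and 6 lower by unadjusted p (4.71% and 5.58% of all genes were). That was 13.5% of them against 10.3% of all genes. DESeq2 called 1, Kcnj3, and limma called 0. The median log2 fold change was 0.02 over the 96 genes and 0.01 over all genes. Of the 11 ciliary transport genes 10 had positive values (median 0.36), as did 50.8% of all genes, and 2 were higher by unadjusted p.

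The 3 tested genes whose profile was most like that of Sstr3, by Pearson correlation of log2 CPM over the 9 libraries, were F8a (0.987), Derl1 (0.983) and Rxylt1 (0.982). F8a was at 14.3 to 34.8 CPM in tumors and at 21.0, 40.8 and 43.3 CPM in NI1, NI2 and NI3, so that M2, NI2 and NI3 were the highest, as for Sstr3. By Spearman correlation the same genes came 75th, 109th and 310th, at 0.917, 0.900 and 0.833. These values describe 9 points that share their library depth and scaling.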

How the data were processed

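Single-end reads of 75 bases were made from an NEBNext Ultra library, a kit that does not mark strand, trimmed by the authors with Trimmomatic 0.38 and quantified with salmon 1.4.0 on mm10. The authors deposited 1 table of estimated counts, whole numbers for each gene with no scaling between libraries. The step from transcripts to genes is not given in the sources used here, and no sample column was left out. Symbols and positions came from GENCODE for GRCm38 (54094 of 54347 identifiers matched), and promoter windows from RefSeq, matched by symbol for Sstr2, Sstr3 and Sstr4.

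A gene was tested if 3 or more of the 9 libraries reached 1 CPM. After TMM scaling, edgeR 4.0.16 (R 4.3.3) gave two-sided quasi-likelihood tests, with Benjamini-Hochberg adjustment and a threshold of 0.05. All 6 tumors were set against 3 islet libraries in a fit of 2 groups, and the other comparisons came from a fit of all 3 groups. Standard errors were the log2 fold change divided by the square root of F. Alternatives used DESeq2 1.42.0 (the authors' tool), limma 3.58.1, other scalings and filters, and left out libraries in turn. Leaving out NI1 and M6 together was added after the data were seen. The default fits of edgeR, DESeq2 and limma were also tested on simulated counts. This covered all tumors against islets and functional against non-functional tumors, and no other comparison or alternative. Receptors and lists were chosen with earlier results of these data known. Named genes were all receptors, both ligands, Cdk5r1, neighbors of each receptor, the 3 genes most like Sstr3, and from each list up to 3 genes called per direction or, with none called, the 2 with the largest absolute log2 fold change in tumors against islets. Pcsk2, Kcnj6, Kcnj9, Adcy1, Rgs3, Rgs12, Chrm3, the markers Ins1, Mafa, Nkx6-1, Pdx1, Gcg and Fos and the receptors Glp1r, Ffar1 and Adra2a were named after their values were seen, as was Grk5 for functional tumors.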

Additional observations from a re-analysis of the deposited data

Results flagged for a closer look

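Among the 6 tumors, 10 of 33 measures examined had 1 library far from the other 5 by Dixon's test on CPM without logs. For normally distributed values that test flags about 1 in 20 groups, or 1.6 of 33. CPM values and small read counts are skewed and can be flagged more often, so 10 is not read as an excess. M2 stood out in 4 of the 10. It had 0.170 CPM of Sstr1 against 0 to 0.0364 CPM in the other tumors, 0.510 CPM of Sstr5 against 0 to 0.101 CPM, 2528 CPM of Sst against 2.75 to 107 CPM, and 126.5 CPM of Ttc8 against 31.1 to 61.0 CPM. M6 stood out in 3, with 0.458 CPM of Sstr2 against 0.0403 to 0.119 CPM, 11.1 CPM of Gng7 against 0.708 to 3.39 CPM, and 5.86 CPM of Kcnj3 against 0 to 0.0737 CPM. For each of these 3 genes the library labelled NI1 was close to M6, at 0.429, 10.7 and 5.04 CPM. M3 stood out with 0.109 CPM of Sstr4 against 0 to 0.0352 CPM and with 117 CPM of Adcy7 against 8.76 to 27.9 CPM. M4, the library with the highest mitochondrial share, had 2.54 CPM of Rgs14 against 0.504 to 0.945 CPM. The values of Sstr1 and Sstr4 rest on 12 and 6 reads.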

How the results depend on the processing

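In tumors against islets, Sstr3 was lower and not called under each of 18 alternatives (log2 fold change -0.95 to -0.44, adjusted p 0.0576 to 0.708), and leaving out 1 library at a time gave -0.95 without NI1 to -0.44 without NI3. In functional tumors against islets these fits gave -0.91 to -0.35, in non-functional tumors -1.05 to -0.54, and between the tumor classes -0.13 to 0.41, with a change of sign only without M2 (-0.13). No member was called in any comparison under any alternative run. Same-numbered tumor and islet samples correlated at -0.0244, 0.00702 and -0.103 in their deviations, and the other pairs at -0.0847 to 0.116. The numbers thus gave no sign of pairing, but 3 samples per group are too few to settle it. With the replicate number as a block, Sstr3 in functional tumors against islets had -0.58 (adjusted p = 0.464), and 0 members were called. Over 485 values of the 27 named pathway genes under alternatives, 459 kept direction and side of the threshold, 25 passed it only under the alternative (8 by DESeq2, 5 without NI1, 9 without NI1 and M6, 2 without M6 and 1 with no filter) and 1 changed sign, Sst, whose value ran from -4.23 without M2 to 1.23 without NI3. Leaving out single libraries gave 0 pathway calls in tumors against islets except without NI1 (5 higher, 4 lower) and without M6 (1 higher, 1 lower). At this depth Sstr1, Sstr2, Sstr4 and Sstr5 were mostly at or near 3 reads, and differences between groups in them were not resolved.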
